A study of Mus musculus with 17 samples.

Results

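The last step of a 720 min time course was examined in neural precursor cells from the adult mouse hippocampus, grown as a culture on coated plates. It sets the 4 arrays taken 480, 540, 600 and 720 min after growth factor withdrawal against the 3 arrays taken at 300, 360 and 420 min, which makes 7 of the 17 arrays of the series. Each array was placed in its window by the time on its label, with no measured value used. On all 7, RNA came from cells that had first been grown in Neurobasal medium with B27, GlutaMAX, basic fibroblast growth factor (bFGF) and epidermal growth factor (EGF), and from which both factors were then removed to start differentiation. The labels name no strain, genotype, age or sex. There was 1 array at each time, so neighbouring times stood in for replicates. The p-values therefore measure only the spread inside the windows of this single series, which real change during a window adds to, and separate cultures could vary more or less. Cells left in bFGF and EGF for equal times were not among the 17 arrays, so time after withdrawal and time in culture cannot be told apart.

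Neural precursor cells divide while bFGF and EGF activate the MAPK and PI3K pathways. PI3K signalling through AKT keeps FOXO transcription factors out of the nucleus and, through mTORC1, favours the making of sterols, nucleotides and amino acids by SREBP and ATF4. When mitogens are missing, cyclins and E2F factors of the G1 phase decline, cells stop entering S phase, and those already in S phase or G2 go on to finish division. In this tissue the same precursors can give rise to granule neurons and astrocytes, and in culture also to oligodendrocytes.

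Values are log2 signals of single probes, and a difference of 1 is a doubling of the measured signal. The arrays had nearly identical distributions, with medians of 6.40 to 6.42, and the lowest correlation between any pair of the 7 arrays was 0.984. After leaving out probes whose mean was below the median of all probes (6.41), 9940 features remained, 9207 of them with a gene name. The progenitor markers Nes (10.97 ± 0.12), Sox2 (10.02 ± 0.23) and Vim (13.45 ± 0.09; SD, n = 4 times) were well above that level at 480 to 720 min. At 300 to 420 min they stood at 11.05 ± 0.20, 10.02 ± 0.09 and 13.09 ± 0.10 (SD, n = 3 times), and none of the 3 passed the test described next. All 12 microglia and macrophage markers on the array and 10 of 13 endothelial and mural markers lay below the filter. Of the neuronal markers, Dcx, Tubb3, Rbfox3 and Neurod1 were among 10 of 25 below it, as were the oligodendrocyte genes Sox10 and Mog. So were 6 of 20 progenitor markers, among them Pax6 and Sox1. The neuronal marker Map2 (12.99) and the oligodendrocyte precursor marker Bcan (11.38) were well above the filter at 480 to 720 min.

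Of the 9940 features, 132 were higher (1.33%) and 96 were lower (0.966%) at 480 to 720 min than at 300 to 420 min, by limma with a Benjamini-Hochberg adjusted p under 0.05. Together this is 2.29% of the features. The smallest adjusted p was 0.0271, and 2111 features had an unadjusted p under 0.05. Changes of 2-fold or more were reached by 4 of the features that rose and 10 of those that fell, and the median change of all features was 0.01. The windows did not overlap for 1776 features (17.9%), of which 932 were higher (9.38%) and 844 lower (8.49%) on every later array. A gradual trend in ordered times raises this share. All 228 features past the limma threshold were among the 1776, so a lack of overlap adds no support for a gene that passed. When the same 7 arrays were fitted with a straight line over minutes, 983 features rose (9.89%) and 861 fell (8.66%), and 223 of the 228 features above were among them. The window test rested on single arrays. Without the 300, 360, 540 or 600 min array, 0 features passed with limma, while 1374, 1517, 1816 and 1884 had an unadjusted p under 0.05. Without the 480 min array 326 rose and 250 fell, and without the 420 min array 318 rose and 234 fell. Without the 720 min array, 57 rose (0.573%) and 72 fell (0.724%). Fewer cells of a type and less RNA per cell cannot be told apart in these bulk samples.

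Most of the features that passed, 121 of the 132 that rose and 71 of the 96 that fell, were in none of the 39 gene lists. Among the lists, some members of sterol synthesis, of amino acid and one-carbon metabolism and of the G1/S transition fell at 480 to 720 min, and some FOXO-linked genes rose. On the single array at 720 min, the median difference of 40 genes of mitosis from 480 to 600 min was -0.92, against 0.01 for all features. Among members past the threshold, 3 have the DNA motif searched for their list in the 250 bases before their RefSeq start site, and these windows are shown in full with the motif in capitals. All are on the plus strand of GRCm38.p6 and run 5′ to 3′. Chac1, at chr2:119350992-119351241, holds a C/EBP-ATF element (TGATGNAA, here on the minus strand) beginning 193 bases before the start. Cdc6, at chr11:98907901-98908150, holds an E2F site (TTCCCGC, also on the minus strand) at 138 bases, and Txnip, at chr3:96557707-96557956, a forkhead site (TGTTTAC, on the minus strand) at 121 bases.
Chac1: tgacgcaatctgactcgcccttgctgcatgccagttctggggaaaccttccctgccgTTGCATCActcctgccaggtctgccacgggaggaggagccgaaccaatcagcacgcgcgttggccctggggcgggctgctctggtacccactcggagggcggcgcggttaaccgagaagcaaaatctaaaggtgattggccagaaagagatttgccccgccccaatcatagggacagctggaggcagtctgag
Cdc6: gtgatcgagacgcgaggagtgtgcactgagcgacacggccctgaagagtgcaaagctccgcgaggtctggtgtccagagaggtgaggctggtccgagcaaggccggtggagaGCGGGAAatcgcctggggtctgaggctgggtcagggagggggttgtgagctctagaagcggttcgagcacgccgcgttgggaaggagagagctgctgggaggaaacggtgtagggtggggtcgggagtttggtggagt
Txnip: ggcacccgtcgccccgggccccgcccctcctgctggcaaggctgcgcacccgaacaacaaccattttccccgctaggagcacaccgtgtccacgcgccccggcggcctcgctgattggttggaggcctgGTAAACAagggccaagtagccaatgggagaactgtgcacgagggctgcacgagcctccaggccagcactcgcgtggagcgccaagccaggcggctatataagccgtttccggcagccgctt
Both strands were searched. The C/EBP-ATF letters occur in 3.45% of 32851 mouse windows of this length, the E2F letters in 3.82% and the forkhead letters in 3.17%. They occur in 6 of the 19 tested stress response genes that had a window, in 8 of 32 replication genes and in 2 of 18 FOXO-linked genes. Among those past the threshold with a window, the letters occur in 1 of 2, 1 of 2 and 1 of 3. Past the threshold, the C/EBP-ATF letters were in 0 of 3 serine and one-carbon genes and 0 of 1 tRNA synthetase. The E2F letters were in 0 of 2 such G1/S genes. A sterol element (TCACNCCAC), found in 1.05% of all windows, was in 0 of 13 sterol genes. The CHR motif (TTTGAA, 16% of all windows) was in 10 of 33 mitosis genes. An RBPJ site (TGGGAA, 21.6%) was in 2 of 10 Notch genes. The E-box (CACGTG, 6.02%) was in 7 of 21 lysosome and autophagy, 3 of 9 clock and 1 of 20 ribosome biogenesis genes. In the lists searched for these 3 motifs, no member past the threshold had the letters. A match is a run of letters and not a measured binding site.

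**Figure D1:**
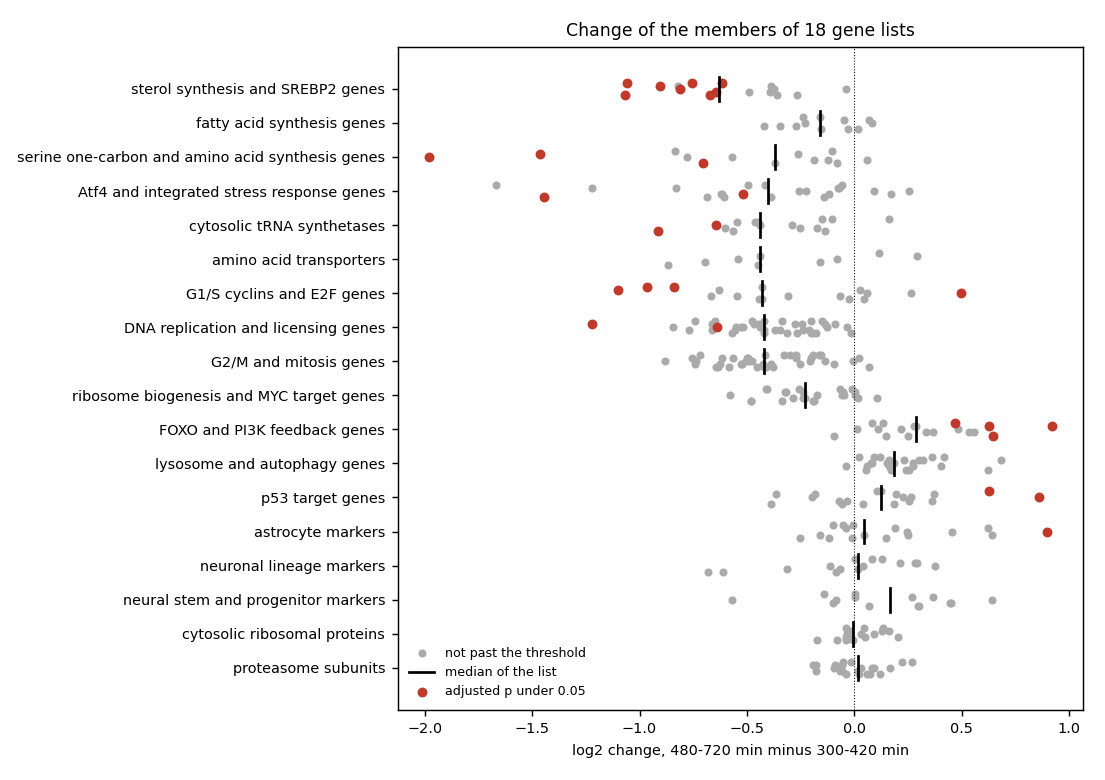
Log2 change (480 to 720 min minus 300 to 420 min, horizontal axis) of each tested member of 18 gene lists, 1 point per gene, with the list median as a bar and genes at an adjusted p under 0.05 in red. All 16 sterol genes lie left of 0 and 18 of 19 FOXO-linked genes lie right of it.

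Sterol synthesis had the highest share of falling members among the lists. Of 16 tested genes, 8 fell and 0 rose, against a background of 0.966% falling, and the list median was -0.63 against 0.01 for all features. All 16 changes were negative. The windows did not overlap for 12 of the 16, all lower, beside 8.49% of all features. Every list count of the window test has the same background, 0.966% of features falling and 1.33% rising. Cyp51, the lanosterol demethylase, read 10.53, 9.89, 9.96 and 9.85 at 480, 540, 600 and 720 min, against 11.09, 11.21 and 11.08 at 300, 360 and 420 min. Every later array was lower, and the 480 min array stood between the earlier window and the 3 latest times. Its signal was 2.10-fold lower (change -1.07, SE 0.15, adjusted p = 0.0271). Hsd17b7, which acts in the same pathway as a ketosteroid reductase, read 10.16, 9.72, 9.99 and 9.54 in the later window, against 11.12, 10.89 and 10.71 in the earlier one. No later array reached the earlier ones, and the signal was 2.08-fold lower (change -1.06, SE 0.15, adjusted p = 0.0271).

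The other 6 sterol genes that fell span the pathway. They were Msmo1, a sterol C4 oxidase (-0.90), Lss, which closes the sterol ring (-0.81), the sterol transfer protein gene Stard4 (-0.76), Nsdhl (-0.67), Dhcr7, which makes cholesterol from its last precursor (-0.65), and Mvd of the mevalonate branch (-0.62). Lss read 8.75, 8.53, 8.06 and 8.09 at 480 to 720 min, against 9.06, 9.26 and 9.20 at 300 to 420 min. Dhcr7 read 8.04, 7.66, 7.65 and 7.78, against 8.24, 8.51 and 8.52, so its later values were flat from 540 min on. Neither gene had overlapping windows. Stard4, Nsdhl, Dhcr7 and Mvd lie outside the naming rule and were named after their values were seen.

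Of the sterol genes that did not pass, Fdps, which makes farnesyl diphosphate, had a change of -0.82 (adjusted p = 0.056). The feedback gene Insig1 was at -0.49 (adjusted p = 0.0506) and Srebf2, which encodes SREBP2 itself, at -0.39 (adjusted p = 0.115). Sqle, Idi1 and Tm7sf2 lay between -0.38 and -0.27, and Ebp was at -0.04. The 12 tested genes of fatty acid synthesis had a median of -0.16, with 0 rising and 0 falling. The sterol count followed single arrays as all counts of this test did. It was 0 without 300, 360, 540 or 600 min, 6 without 720 min, 7 without 420 min and 10 without 480 min, and the straight line called 12 of the 16 lower.

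**Figure D2:**
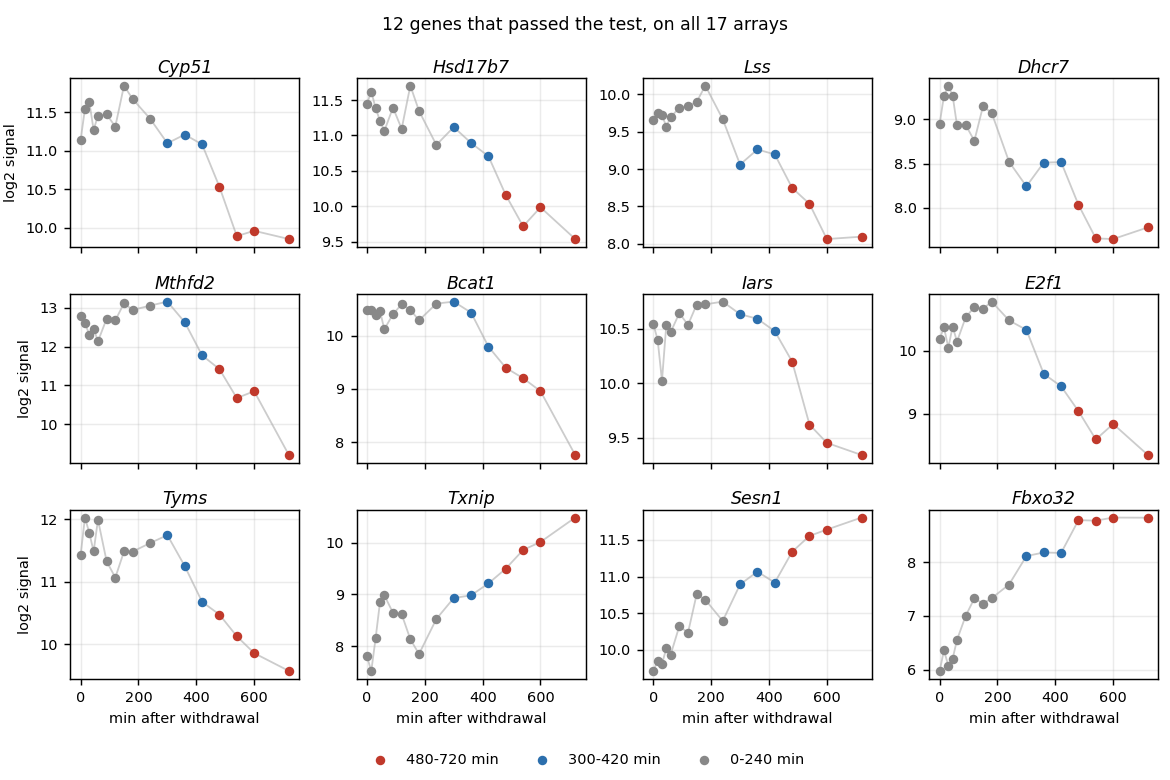
Log2 signal (vertical axis, own scale in each panel) against minutes after withdrawal for 12 genes past the threshold on all 17 arrays, with the 480 to 720 min window in red, the 300 to 420 min window in blue and earlier times in grey. Sterol genes are highest at 30 to 180 min and lowest after 480 min, Mthfd2 and Bcat1 drop furthest at 720 min, and Txnip, Sesn1 and Fbxo32 have their highest values after 480 min.

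Mthfd2, the mitochondrial folate enzyme that supplies one-carbon units, had the largest fall of all named genes. It read 11.42, 10.67, 10.85 and 9.21 at 480, 540, 600 and 720 min, against 13.16, 12.63 and 11.77 at 300, 360 and 420 min. No later array reached the earlier ones, and the 720 min array was more than 1 below all others. The window means were 10.54 ± 0.94 (SD, n = 4 times) and 12.52 ± 0.70 (n = 3 times), a 3.95-fold lower signal (change -1.98, SE 0.42, adjusted p = 0.041). Bcat1, which transaminates branched-chain amino acids, read 9.40, 9.20, 8.96 and 7.76, against 10.64, 10.44 and 9.80 in the earlier window. It too had no overlap and its lowest value at 720 min (change -1.46, SE 0.32, adjusted p = 0.0427). Aldh18a1, the first enzyme of proline synthesis, was steadier, at 9.00, 8.83, 8.69 and 8.54, against 9.54, 9.51 and 9.37 (change -0.70, SE 0.12, adjusted p = 0.0319).

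These 3 were the ones that fell among 13 tested genes of serine, one-carbon and amino acid synthesis, and 0 rose. The list median was -0.37. The asparagine synthetase gene Asns had a change of -0.57 (adjusted p = 0.0805) and the serine-glycine enzyme gene Shmt2 one of -0.78 (adjusted p = 0.102). The first serine enzymes were closer to 0, with Phgdh at -0.26 and Psat1 at -0.10. Of 15 cytosolic tRNA synthetases, which load amino acids onto tRNA, 2 fell and 0 rose, with a median of -0.44. Iars read 10.20, 9.62, 9.45 and 9.34 at 480 to 720 min, against 10.64, 10.59 and 10.48 at 300 to 420 min (change -0.92, SE 0.17, adjusted p = 0.0328). Lars fell by 0.65 on the log2 scale (adjusted p = 0.0328). For 7 of the 15 the windows did not overlap and were lower, beside 8.49% of all features. Of 9 amino acid transporters 0 fell and 0 rose, with a median of -0.44.

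Atf4, the stress response factor that the series title names, read 12.37, 12.34, 12.27 and 11.91 at 480 to 720 min, against 13.17, 12.64 and 12.68 at 300 to 420 min. Each later array was lower, and the change of -0.61 (SE 0.15) narrowly missed the threshold (adjusted p = 0.0548). Atf3, also in the title, lay below the filter at 5.92 ± 0.08 (SD, n = 4 times), against 6.14 ± 0.13 (n = 3 times), with a change of -0.22 when no filter was set (adjusted p = 0.274). Of 22 tested genes of the integrated stress response, 2 fell, beside 0.966% of all features, 0 rose and the median was -0.40. Chac1, which degrades glutathione, read 8.76, 8.80, 8.76 and 9.16, against 11.32, 10.24 and 9.39. Its earlier window was spread over nearly 2 log2 units and its later one was flat (change -1.44, SE 0.32, adjusted p = 0.0427). Xpot, which exports tRNA from the nucleus, fell by 0.52 (adjusted p = 0.0429). The Atf4-induced pseudokinase gene Trib3 had a larger change of -1.67 that did not pass (adjusted p = 0.0889), with overlapping windows.

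Among 17 tested G1/S cyclin and E2F genes, 3 fell, beside 0.966% of all features, and 1 rose, with a median of -0.43. E2f1, an activator of S phase genes, read 9.04, 8.59, 8.83 and 8.34 at 480 to 720 min, against 10.34, 9.63 and 9.44 at 300 to 420 min. It was 2.15-fold lower (change -1.10, SE 0.21, adjusted p = 0.0328). E2f2 fell by 0.84 (adjusted p = 0.0328). Ccne2, cyclin E2, fell by 0.96 (adjusted p = 0.041), while cyclin E1 (Ccne1) at 0.03 and the D-type cyclins Ccnd1 at 0.04 and Ccnd2 at -0.07 did not pass. The gene that rose was Rb1, the retinoblastoma protein that holds E2F factors in check. Rb1 read 10.49, 10.73, 10.47 and 10.68, against 10.21, 10.09 and 9.99, with a change of 0.50 (SE 0.11, adjusted p = 0.0427).

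Of 39 tested DNA replication and licensing genes, 2 fell and 0 rose, yet all 39 had a negative change and the median was -0.42. The windows did not overlap for 16 of the 39, all lower, beside 8.49% of all features. The straight line over minutes called 28 lower, beside 8.66% of all features. Tyms, thymidylate synthase, read 10.47, 10.13, 9.85 and 9.57 at 480 to 720 min, against 11.75, 11.25 and 10.68 at 300 to 420 min. It declined at each successive time in both windows (change -1.22, SE 0.24, adjusted p = 0.0346). Tyms-ps, a pseudogene copy, fell by 0.97, and its probe may share signal with Tyms, so the pair is not independent. Cdc6, which loads the replicative helicase, was level at 7.92, 7.94, 7.99 and 7.85, against 8.89, 8.48 and 8.32 (change -0.64, SE 0.13, adjusted p = 0.0375). The histone H2A genes H2ac15 (-0.93) and H2ac21 (-0.93) also fell, and probes of this gene family may share signal.

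Genes linked to FOXO factors and to feedback on PI3K were the list with the highest share of rising members. Of 19 tested, 4 rose and 0 fell, beside 1.33% of all features that rose, and the median was 0.29. The windows did not overlap for 8 of the 19, all higher, beside 9.38% of all features. Txnip, an inhibitor of thioredoxin and of glucose uptake, read 9.50, 9.86, 10.01 and 10.48 at 480 to 720 min, against 8.93, 8.98 and 9.21 at 300 to 420 min. It increased at each successive time across the 7 arrays and was 1.89-fold higher (change 0.92, SE 0.18, adjusted p = 0.0364). Fbxo32, the ubiquitin ligase atrogin-1, read 8.78, 8.77, 8.83 and 8.83, against 8.11, 8.18 and 8.17. Its values formed 2 flat levels with the step between 420 and 480 min (change 0.65, SE 0.09, adjusted p = 0.0271). Sesn1, a sestrin that restrains mTORC1, read 11.34, 11.56, 11.64 and 11.81, against 10.89, 11.07 and 10.92 (change 0.63, SE 0.12, adjusted p = 0.0328).

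Cited2, a transcription coregulator, completed the 4 with a change of 0.47 (adjusted p = 0.0442). The other members were smaller or less steady. Catalase (Cat) was at 0.48 (adjusted p = 0.0537), the PI3K inhibitor gene Pik3ip1 at 0.54 (adjusted p = 0.0793), Foxo1 at 0.33 (adjusted p = 0.109) and Bcl2l11, a pro-apoptotic gene, at -0.09. The count of 4 became 0 without the 300, 360, 540 or 600 min array, 3 without 720 min, 6 without 480 min and 7 without 420 min. Of 25 tested lysosome and autophagy genes, 0 rose and 0 fell in the window test, but 24 had a positive change and 8 had later values above all earlier ones, beside 9.38% of all features. Their median was 0.19, and the autophagy gene Wipi1 had the largest change, 0.68 (adjusted p = 0.0548). Of 19 p53 target genes, 2 rose, Sesn1 again and the death receptor gene Fas. Fas read 8.24, 8.58, 8.79 and 9.00 at 480 to 720 min, against 7.88, 7.75 and 7.75 at 300 to 420 min (change 0.86, SE 0.15, adjusted p = 0.0319). Cdkn1a, the cyclin-dependent kinase inhibitor p21 and a main p53 target, was at -0.18 and Mdm2 at 0.11, and neither passed.

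**Figure D3:**
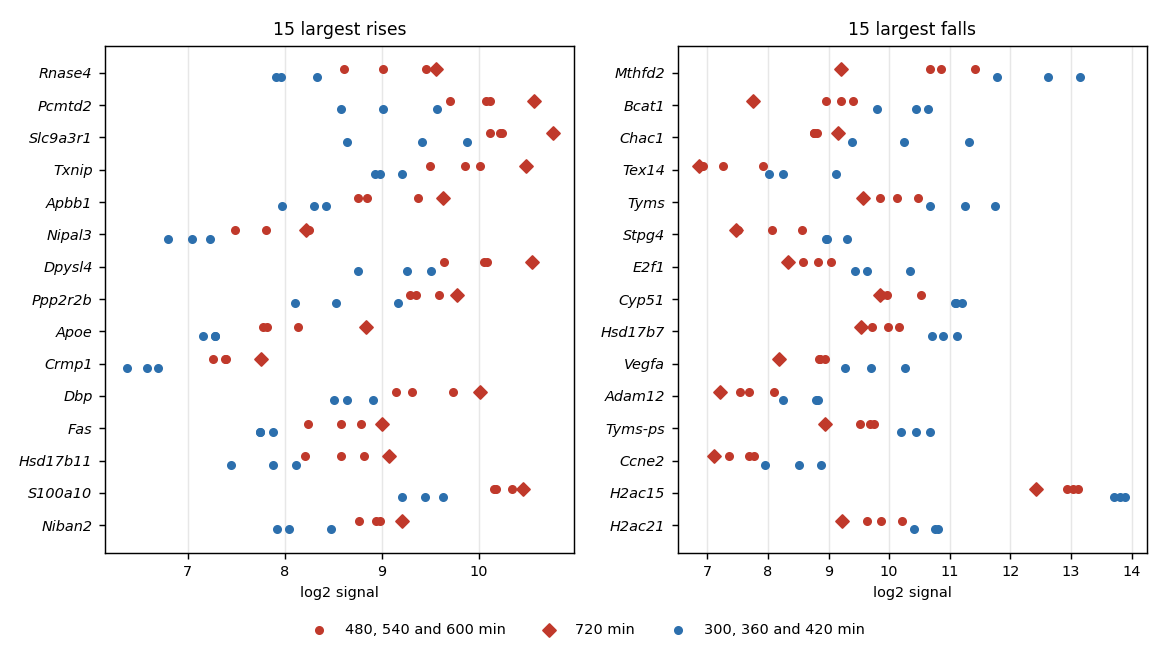
Log2 signal (horizontal axis) on each of the 7 arrays for the 15 named genes with the largest rises and the 15 with the largest falls, with 480 to 600 min as red circles, 720 min as red diamonds and 300 to 420 min as blue circles. The genes were chosen among those whose windows do not overlap, and the 720 min array is the extreme value for most.

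The largest rise among named genes was in Rnase4, a secreted ribonuclease, which read 8.61, 9.01, 9.46 and 9.56 at 480 to 720 min, against 7.91, 7.97 and 8.33 at 300 to 420 min. It was 2.13-fold higher (change 1.09, SE 0.20, adjusted p = 0.0328). A probe with no gene name had a larger rise, 1.25. Pcmtd2 (1.06), the membrane scaffold gene Slc9a3r1 (1.02), the amyloid precursor binding gene Apbb1 (0.92) and Nipal3 (0.92) followed with Txnip. Crmp1 and Dpysl4, collapsin response mediator genes that act on the cytoskeleton of growing neurites, were both higher. Crmp1 read 7.26, 7.39, 7.38 and 7.76, against 6.37, 6.58 and 6.70 (change 0.90, SE 0.13, adjusted p = 0.0271). Dpysl4 rose by 0.91, Ppp2r2b, a brain subunit of protein phosphatase 2A, by 0.90, and the annexin partner S100a10 by 0.85. Dbp, an output gene of the circadian clock, rose by 0.87 and was the 1 of 11 tested clock genes to pass. Nr1d2 (0.47), Rora (0.37), Cry2 (0.29) and Tef (0.27) had the next largest changes under the naming rule. Per1 (0.27), Per2 (-0.17) and Arntl (-0.19), which lie outside that rule, did not pass either. The clock list had a median of 0.27, with 6 changes positive and 5 negative. Hsd17b11 and Niban2 complete the 15 with 0.85 and 0.82.

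Of the largest falls, Vegfa, an angiogenic growth factor gene, was 2.06-fold lower (change -1.04, SE 0.22, adjusted p = 0.041). It read 8.95, 8.84, 8.85 and 8.18 at 480 to 720 min, against 10.26, 9.71 and 9.28 at 300 to 420 min. Of 22 glycolysis and hypoxia genes 2 fell, Vegfa and the lactate dehydrogenase gene Ldha (-0.44), and 0 rose. Tex14 (-1.22), a gene of intercellular bridges in germ cells, Stpg4 (-1.17) and the metalloprotease gene Adam12 (-0.99) were the remaining large falls.

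Few lineage markers passed the window test. Apoe, the lipid carrier made by astrocytes, read 7.82, 7.77, 8.13 and 8.84 at 480 to 720 min, against 7.15, 7.29 and 7.28 at 300 to 420 min (change 0.90, SE 0.21, adjusted p = 0.0447). It was the 1 astrocyte marker of 17 to pass. S100b (0.62, adjusted p = 0.1) and Gfap (0.64, adjusted p = 0.158) had changes that did not, and Slc1a3 was at 0.15. Of 15 neuronal, 14 progenitor, 6 oligodendrocyte precursor and 7 myelin markers, 0 rose and 0 fell. The largest neuronal changes were those of Calb2 (-0.68, adjusted p = 0.0548) and Gap43 (-0.61, adjusted p = 0.0537). Later values lay below all earlier ones for 3 of the 15, beside 8.49% of all features, and above them for 0. For 3 of the 7 myelin markers later values lay above all earlier ones, beside 9.38% of all features, and for 1, Fyn (-0.23), below them. Sirt2 had the largest change of that list, 0.82 (adjusted p = 0.0725). Cnp, an early myelin enzyme, had a change of 0.79 (adjusted p = 0.0577) and Mbp, myelin basic protein, 0.10. Summed over all markers on the array on the linear scale, endothelial and mural markers lay between 1055 and 1375 at 480 to 720 min, against 1420 and 1693 at 300 to 420 min. Most of that gap was Acta2 (change -0.69, adjusted p = 0.115), and without it the sum of the other 12 lay between 803 and 822, against 827 and 861. Progenitor markers lay between 24741 and 26694, against 21385 and 23614, and neuronal markers between 50726 and 52620, against 45378 and 50397. Bright genes weigh most in a linear sum. Among bright progenitor markers, Vim (0.37, adjusted p = 0.0715) and Egfr (0.45, adjusted p = 0.155) were higher without passing. Nes (-0.09) and Sox2 (0.0014) changed little and Tnc (-0.57, adjusted p = 0.29) was lower. Of the 14 tested progenitor markers, 10 changes were positive and 4 negative. Microglia markers lay between 766 and 800, against 775 and 798. Oligodendrocyte precursor markers lay between 30416 and 37058, against 25236 and 34195, myelin markers between 9000 and 11101, against 7071 and 9935, and astrocyte markers between 54180 and 62602, against 58890 and 59276. The part of these shifts in the results was not tested.

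Regulators of cell fate changed in few members. Id2, an inhibitor of basic helix-loop-helix factors, read 10.04, 9.92, 9.75 and 10.04 at 480 to 720 min, against 9.40, 9.05 and 9.54 at 300 to 420 min (change 0.61, SE 0.13, adjusted p = 0.041). It was the 1 of 10 BMP, TGF-beta and ID genes to pass. Of 14 Notch pathway genes, 1 fell, the feedback gene Nrarp (-0.62, adjusted p = 0.0429). Sox12 rose by 0.68, and the AP-1 gene Fosl2 rose by 0.57, the only riser among 12 immediate early genes. Plxna4, a semaphorin receptor, fell by 0.62, and the glutamate receptor gene Grm5 fell by 0.73. Of 12 MAPK feedback genes 0 rose and 0 fell, with a median of 0.13, 10 changes positive and 2 negative. Their largest changes were those of Il17rd (0.83, adjusted p = 0.0633) and Etv4 (-0.53, adjusted p = 0.0675). Of 17 cytosolic ribosomal proteins, 24 oxidative phosphorylation subunits and 23 proteasome subunits, 0 rose and 0 fell. Their medians are drawn for the ribosomal proteins and the proteasome beside the other lists. Of 25 ribosome biogenesis and MYC target genes 0 passed, and 7 had later values below all earlier ones, beside 8.49% of all features, with a median of -0.23.

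The 720 min array was then set by itself against the 3 arrays at 480 to 600 min, in a fit in which the lone array was assumed to vary like the other 6. It lies 120 min after the array before it, a longer gap than between the others. With 1 array at that time, a change with time and a deviation of that array or culture cannot be told apart. Of the 9940 features, 14 were higher (0.141%) and 101 lower (1.02%) at 720 min. Across all 7 arrays, 720 min had the highest value for 22.1% of features and the lowest for 20.5%.

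Of 40 tested G2/M and mitosis genes, 27 were lower at 720 min, 0 were higher, and the median difference was -0.92 against 0.01 for all features. For 39 of the 40 the 720 min value was the lowest of the 7 arrays, beside 20.5% of all features. Aurkb, a kinase of chromosome segregation, read 8.90 at 720 min, against 10.39, 10.35 and 10.04 at 480, 540 and 600 min, and 10.69, 11.05 and 10.66 in the window before (difference -1.36, SE 0.19, adjusted p = 0.0065). Cdk1, the kinase that drives entry into mitosis, read 10.17, against 11.52, 11.67 and 11.24, and 11.86, 12.02 and 11.79 earlier (difference -1.30, adjusted p = 0.00629). Both stood lower at 720 min than on any of the other 6 arrays. Mki67, a marker of dividing cells, read 9.84, against 10.94, 10.77 and 10.75, and 10.96, 11.21 and 11.06 earlier (difference -0.98, adjusted p = 0.0115).

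**Figure D4:**
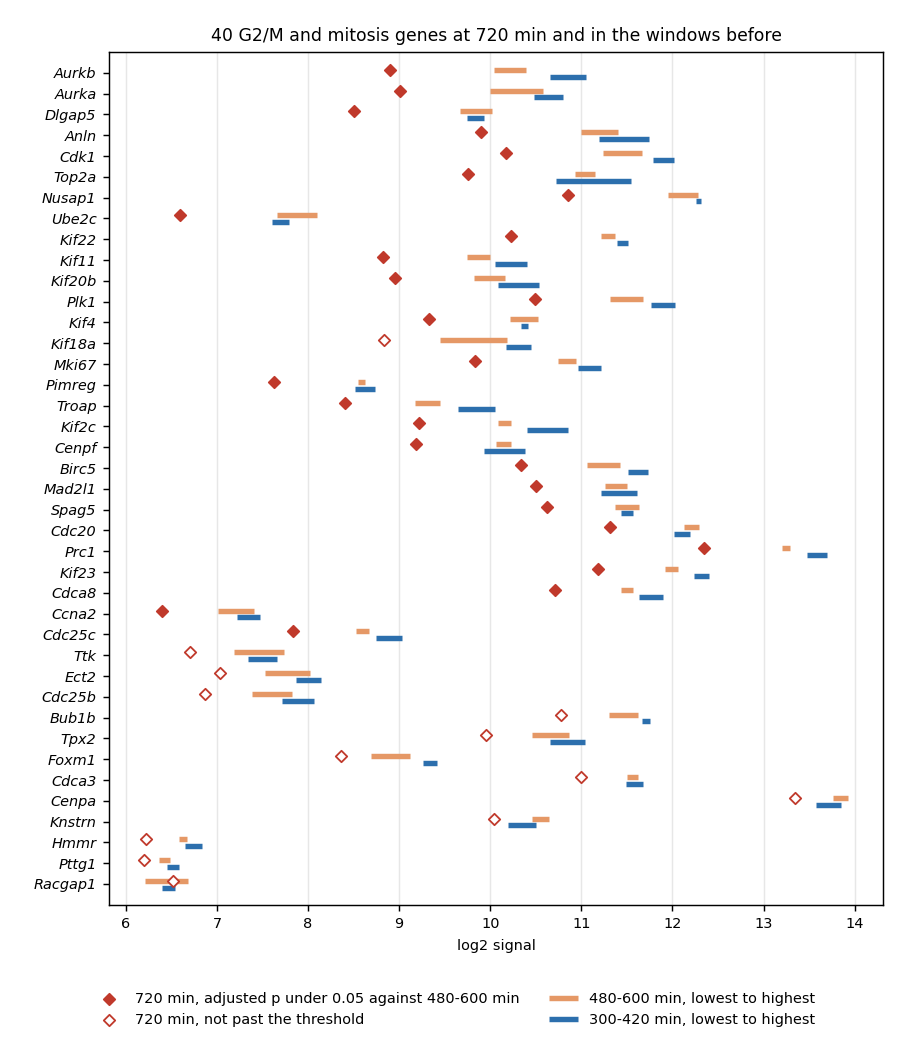
Log2 signal (horizontal axis) of 40 G2/M and mitosis genes, with the 720 min array as a diamond (filled where the adjusted p against 480 to 600 min was under 0.05), the range of the arrays at 480 to 600 min as an orange bar and that at 300 to 420 min as a blue bar. For 39 of the 40 genes the diamond lies left of both bars.

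Over the whole later window the same 40 genes gave 0 calls, with a median of -0.42 and 15 members whose windows did not overlap, all lower, beside 8.49% of all features. The straight line called 30 of them lower, beside 8.66% of all features. Other members lower at 720 min were Aurka (-1.34), Anln, which acts in the contractile ring (-1.32), the spindle gene Nusap1 (-1.25), topoisomerase Top2a (-1.29) and Ube2c, a ubiquitin carrier of the anaphase-promoting complex (-1.25). The mitotic transcription factor gene Foxm1 had a difference of -0.59 (adjusted p = 0.178), and Cenpa, the centromeric histone gene, -0.51 (adjusted p = 0.203). For 36 of 39 replication genes the 720 min value was the lowest of the 7, beside 20.5% of all features. Their median difference from 480 to 600 min was -0.49. The mitosis count was 20 without the 360 min array, 16 without 480 min and 9 without 540 min, and 28 to 29 without 300, 420 or 600 min.

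Some genes of amino acid supply were also lower at 720 min. Of the stress response list, 2 of 22 were lower, and of the tRNA synthetases 1 of 15, beside 1.02% of all features. The 720 min value was the lowest of the 7 arrays for 12 of the 22 and 13 of the 15, beside 20.5% of all features. It was also lowest for 11 of 13 serine and one-carbon genes and 4 of 9 amino acid transporters. Nupr1, a stress-induced chromatin gene on the stress response list, had the largest difference, at 9.32, against 11.63, 10.91 and 10.90 at 480, 540 and 600 min (-1.82, SE 0.29, adjusted p = 0.0112). Mthfd2 (-1.77), Bcat1 (-1.43) and Shmt2 (-1.14) were the 3 of 13 serine and one-carbon genes that were lower, and the other 10 did not pass. The transporters Slc7a3 (-1.39) for cationic amino acids, Slc7a11 (-1.30) for cystine and Slc6a9 (-0.96) for glycine were 3 of 9. Gtse1, a mitotic gene and p53 regulator, was at -1.52. The progenitor matrix gene Tnc, tenascin C, was at 10.30, against 11.78, 11.53 and 11.43 (-1.28, adjusted p = 0.0255), and the smooth muscle actin gene Acta2 at -0.99. Sterol genes did not pass the threshold at 720 min, but as a list they were lower. The median difference of the 16 from 480 to 600 min was -0.29, against 0.01 for all features. For 9 of the 16 the 720 min value was the lowest of the arrays compared, beside 20.5% of all features.

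The 14 features higher at 720 min included Ppp1r1a, an inhibitor of protein phosphatase 1 (1.23), the nuclear long noncoding RNA Neat1 (1.14), Grk3 (0.96), Capn1 (0.95), Apoe (0.93) and Wipi1 (0.72). Gfap, the intermediate filament of astrocytes and of adult neural stem cells, read 8.32 at 720 min, against 7.15, 7.22 and 7.23 at 480, 540 and 600 min, and 6.54, 6.86 and 7.12 in the window before. The value stood more than 1 above all others (difference 1.12, SE 0.20, adjusted p = 0.0136). The 17 astrocyte markers had a median difference of 0.14, and 720 min was the highest of the 7 arrays for 5 of them, beside 22.1% of all features. S100b was at 0.53 (adjusted p = 0.464), Glul at 0.54 (adjusted p = 0.222) and Aldoc at 0.60 (adjusted p = 0.277).

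**Figure D5:**
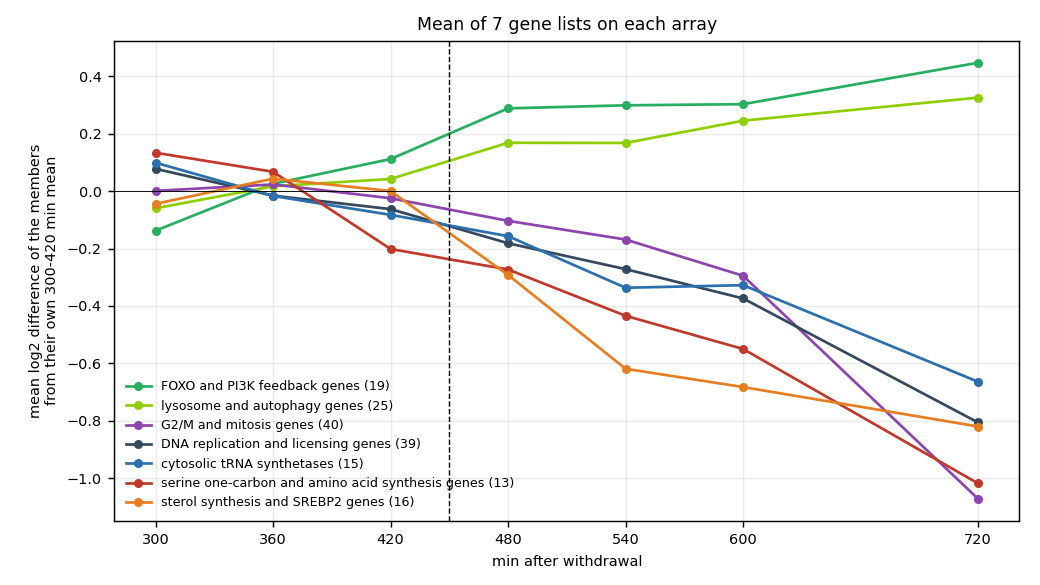
Mean log2 difference of the members of 7 gene lists from their own mean at 300 to 420 min (vertical axis) on each of the 7 arrays (minutes after withdrawal, horizontal axis), with the number of members in the legend and a dashed line between the windows. Sterol genes drop mainly between 420 and 540 min, and mitosis genes between 600 and 720 min.

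The lists differed in when their means moved. The mean of the 16 sterol genes, relative to 300 to 420 min, was -0.29 at 480 min, -0.62 at 540 min, -0.68 at 600 min and -0.82 at 720 min. The mean of the 40 mitosis genes was -0.10, -0.17, -0.30 and -1.07 at the same times. The mean of the 19 FOXO-linked genes was 0.29, 0.30, 0.30 and 0.45. These profiles are descriptions, and no test was made between lists.

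Whether the last step differed from the step before it, 300 to 420 against 150 to 240 min, was tested as the difference of both changes over all 17 arrays. Both steps share the 300 to 420 min arrays, so a gene displaced in that window differs between steps. The 5 features that passed changed in opposite directions in the 2 steps. By limma, the difference, last step minus the step before, was positive for 2 features (0.0201%) and negative for 3 (0.0302%), while 1265 had an unadjusted p under 0.05. Akap12, a kinase anchor, averaged 7.95 ± 0.21 at 480 to 720 min (SD, n = 4 times), 7.39 ± 0.09 at 300 to 420 min and 8.46 ± 0.35 at 150 to 240 min (difference of steps 1.63, adjusted p = 0.00577). The scaffold gene Slc9a3r2 had the same shape, with 6.98 ± 0.20, 6.29 ± 0.22 and 7.08 ± 0.24 (1.47, adjusted p = 0.00577). In both genes the lowest of the 3 windows was 300 to 420 min. Fbp1, a gluconeogenic enzyme (-1.63), the potassium channel gene Kcnd2 (-1.22) and Gucy1b2, a guanylate cyclase subunit (-1.48), were highest in that window. Fbp1 averaged 7.95 ± 0.29, 8.33 ± 0.11 and 7.07 ± 0.43 in the same order. Without the 360 min array 0 features passed (827 at an unadjusted p under 0.05), without 240 min 116 and 53 did, and without 480 min 70 and 32.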

How the data were processed

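Per the labels' protocols, total RNA was amplified and biotin-labelled with the Illumina TotalPrep kit. The authors deposited 1 table of log2 values for 19949 probes on 17 arrays. Its unit was read from the values (5.14 to 15.47), and the normalization method is not given in the sources used here. Symbols came from the platform annotation, updated with the RefSeq gene table of GRCm38.p6, which gave 18256 genes. Of several probes for a gene, that with the highest mean was used, and features with a mean under 6.41 were left out. Tests used limma 3.58.1 in R 4.3.3, with Benjamini-Hochberg adjustment over 9940 features and a threshold of 0.05. The procedure was also run on simulated data with independent noise on each array. Those data hold no trend over ordered times, so that run cannot show how such a trend affects the calls. There are no counts, so the number of arrays limits the precision, and no detection p-values were used.

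The comparison of these windows and the 39 gene lists with their members were chosen with earlier results of these data known. The rule for named genes took Atf3 and Atf4, the 15 largest rises and falls past the threshold with windows that did not overlap (placeholder symbols passed over), up to 5 members per list, the 6 largest differences each way at 720 min, the 5 largest each way between steps, and 5 culture markers. The promoters were to come from the 3 lists with the highest share of members past the threshold in one direction (sterol, serine and one-carbon, FOXO-linked). Of these, only the FOXO-linked list held such a member with its motif, so Chac1 and Cdc6 were shown after their values were seen, and the count of 720 min extremes was also added then. Alternatives covered scaling, the dim-probe filter, the probe, the variance model, array weights, the window edges, the fit and leaving out each array.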

Additional observations from a re-analysis of the deposited data

Results flagged for a closer look

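In 13 of 213 named genes, 1 of the 4 arrays at 480 to 720 min stood far from the other 3 by Dixon's criterion for a gap relative to the range. Chance flags about 1 in 20 groups, and these times are ordered, so a late trend can also do so. The 720 min array was the distant one in 7 genes. There Gfap (8.32), Neat1 (9.96), Map1lc3a (8.71) and Chac1 (9.16) were higher, and Gtse1 (9.01), Kif2c (9.21) and Vegfa (8.18) were lower, than at 480 to 600 min. Gfap, Neat1 and Gtse1 had been named for their differences at 720 min, so that array standing apart in them restates the choice. Gfap was between 7.15 and 7.23 on the other 3 arrays, and Gtse1 between 10.42 and 10.66. At 480 min, Cyp51 (10.53) and Grwd1 (8.10) were higher and Zeb1 (12.05) lower than on the other 3. At 600 min, Ccng1 (12.08) was higher, and Ndufb5 (11.08) and Srebf1 (6.41) were lower. Of these 13 genes, Chac1, Cyp51 and Vegfa passed the window test.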

How the results depend on the processing

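The counts at 480 to 720 min (132 higher, 96 lower) stayed within 1.5 times under both scalings, both filters, with every probe, with an intensity trend and with robust variances. They were 463 and 362 with array weights, 498 and 410 in a fit of all 17 arrays, 983 and 861 with a straight line over minutes, and 37 and 20 when 420 min was moved to the later window. Leaving out 1 array gave 0 to 326 higher and 0 to 250 lower. For 720 min (14 and 101), array weights gave 67 and 195, the comparison with 300 to 420 min gave 460 and 505, and leaving out 1 array gave 0 to 30 and 25 to 127. For the difference of steps (2 and 3), an intensity trend gave 5 and 5, robust variances 4 higher, array weights 181 and 81, and leaving out 1 array 0 to 116 and 0 to 53. The cause was not tested. No change that passed the threshold in either setting turned its sign, while some small changes that did not pass did, such as that of Mbp (0.10, and -0.16 to 0.19 over the settings). Among single genes and lists, 298 values passed no longer, 309 came to pass and 396 list counts moved. No paired analysis was possible because the replicate numbers only name arrays of different times. With 3 or 4 arrays of ordered times per window, the window test by itself does not separate a steady trend from a step.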
